A study of Mus musculus with 14 samples.

Results

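Odc1 and 7 other genes of polyamine metabolism, Amd1, Srm, Sms, Oaz1, Oaz2, Azin1 and Sat1, were followed in regulatory T cells (Tregs) from mouse tumors and spleens. They are 8 of the 27179 genes in the count table. Odc1 was selected on its counts in these same libraries, which were higher in tumor than in spleen, so its values in that comparison are a description and carry no test. The other 7 were taken as listed genes of synthesis, control and breakdown. Each was identified by its NCBI Gene number, and all 8 passed the filter on low counts in every fit.

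Tregs are CD4 T cells that depend on the transcription factor Foxp3 and restrain other lymphocytes. They were sorted directly from the animals by a yellow fluorescent protein (YFP) made together with a Cre recombinase from the Foxp3 locus, and their polyadenylated RNA was sequenced. All animals were of the B6 background, carried FoxP3Cre-YFP and bore a flank tumor of MC38, a mouse colon carcinoma line, taken at endpoint. The 4 groups were tumor Flox (3 libraries), tumor WT (4), spleen Flox (3) and spleen WT (4). Flox libraries came from IL23RFlox/Flox FoxP3Cre mice, in which the Foxp3-driven Cre is meant to remove the IL-23 receptor in Tregs, and WT libraries from IL23RWT/WT FoxP3Cre mice. The controls thus carry the same Cre and the same tumor. The study set Flox against WT within a tissue; the comparison of tumor with spleen is the one that led to Odc1. The labels state no ages. They also do not say whether replicates are separate animals, so each p-value reflects library-to-library spread alone, and that spread may be technical.

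Polyamines are small, positively charged molecules that bind nucleic acids and are needed for cell growth and translation. Ornithine decarboxylase, the product of Odc1, turns ornithine into putrescine, and spermidine synthase (Srm) and spermine synthase (Sms) extend it with groups supplied by the S-adenosylmethionine decarboxylase Amd1. Antizymes (Oaz1, Oaz2) bind ornithine decarboxylase and send it to the proteasome, the antizyme inhibitor Azin1 binds antizymes in its place, and the acetyltransferase Sat1 starts the breakdown and export of spermidine and spermine. T cells raise polyamine synthesis when they are activated.

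The libraries held 4859099 to 10333892 counts, and mean totals did not separate the groups compared (exact permutation p, two-sided, of 0.4 for Flox against WT in tumor, 0.629 in spleen and 0.625 for tumor against spleen). Il23r, the targeted gene, went against the labels: it had 17 counts over the Flox-labelled tumor libraries and 2 over the WT-labelled ones. In spleen it had 10 over the Flox-labelled libraries, 9 of them in replicate 3, against 2 over the WT-labelled ones. Which exons the floxed allele loses is not stated, and counts outside them would check nothing, and the groups are called Flox-labelled and WT-labelled below. Xist, the RNA of the inactive X chromosome, lay at 1.52 to 3.22 CPM (counts scaled to a common library total) in Flox-labelled tumor libraries against 56.8 to 543 in WT-labelled ones, and at 0.527 to 0.885 in Flox-labelled against 70.0 to 421 in WT-labelled spleen libraries. The Y-linked Ddx3y ran the other way, at 315 to 615 CPM in Flox-labelled tumor libraries and at 285 to 350 in Flox-labelled spleen libraries. Among the WT-labelled libraries only replicate 2 had more than 1 CPM of Ddx3y, 127 in tumor and 30 in spleen, together with Xist. The Y-linked Uty, Kdm5d and Eif2s3y reached at most 0.227, 0.549 and 0.366 CPM in WT-labelled tumor libraries. In Flox-labelled tumor libraries they were at least 30.4, 3.59 and 13.8 CPM. Their highest values in WT-labelled spleen libraries were 2.41, 2.81 and 3.45 CPM. Sex and genotype label therefore cannot be told apart in any comparison of Flox with WT.

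The sort was checked on marker genes. The 6 Treg and T cell genes summed to 4430 to 8620 CPM in tumor and 2330 to 3930 CPM in spleen, and Foxp3 itself averaged 136 CPM in tumor against 160 in spleen. Fibroblast genes (6) summed to 9.71 to 129 CPM in tumor and 0 to 1.15 in spleen. B cell genes (8) summed to 42.6 to 285 CPM in tumor and 434 to 2080 in spleen, with Pax5 at 0 in every tumor library. Erythroid genes (4 of 5 listed were in the table) summed to 0.127 to 13.5 CPM in tumor and 26.9 to 276 in spleen, and macrophage genes (10) to 13.7 to 168 CPM in tumor and 7.33 to 254 in spleen. Most of both highest macrophage sums was Adgre1. It reached 143 CPM in a WT-labelled tumor library and 200 in a WT-labelled spleen library, beside group medians of 0.974 and 3.07. Epithelial genes (6) summed to 0.366 to 4.33 CPM in tumor, with Krt19 and Cldn4 at 0, and 3.85 to 29.4 in spleen. CD8 and NK cell genes (4) summed to 2.02 to 8.24 CPM in tumor, with Klrb1c at 0, and 3.03 to 38.6 in spleen. Sums of the T cell, fibroblast, B cell and erythroid lists did not overlap between tissues, while those of the macrophage, epithelial and CD8 and NK lists did. Of the genes that cleared the filter on low counts in each tissue, 3 of 6 T cell and 1 of 6 macrophage genes passed as higher in tumor, 3 of 3 B cell genes and 1 of 1 epithelial gene as lower, and 0 of 1 CD8 and NK genes in either direction, beside 9.76% higher and 7.56% lower of all such genes. No fibroblast or erythroid gene cleared it in each tissue. The part of these lists in the tissue differences below was not tested. In bulk RNA, fewer cells of a type and less RNA per cell cannot be told apart.

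The antizyme messages carry the site at which the ribosome slips by a base when polyamines are plentiful. It is shown for Oaz1, for its near-identical copy Oaz1-ps and for Oaz2, to show how alike an antizyme gene and its copy are. The sequences are 60 bases of GENCODE M21 transcripts, 5′ to 3′, with the stop codon at the slip site in capitals.
Oaz1: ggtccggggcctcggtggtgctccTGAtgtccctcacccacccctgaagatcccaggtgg
Oaz1-ps: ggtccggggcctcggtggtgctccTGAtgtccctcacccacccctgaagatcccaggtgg
Oaz2: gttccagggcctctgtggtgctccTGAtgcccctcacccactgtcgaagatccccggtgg
Oaz1 and Oaz1-ps were identical at 60 of 60 bases, and Oaz2 matched Oaz1 at 51 of 60.

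The start regions of Odc1 and of Smox, the spermine oxidase that was also higher in tumor (below), are shown as 300 bases each from RefSeq. They run from 250 before to 50 after the annotated start on GRCm38.p6. Capitals mark the GC box GGGCGG on either strand. Odc1 lies on chromosome 12 and its window is chr12:17544623-17544922 (plus strand); Smox lies on chromosome 2 with the window chr2:131491612-131491911 (plus strand).
Odc1: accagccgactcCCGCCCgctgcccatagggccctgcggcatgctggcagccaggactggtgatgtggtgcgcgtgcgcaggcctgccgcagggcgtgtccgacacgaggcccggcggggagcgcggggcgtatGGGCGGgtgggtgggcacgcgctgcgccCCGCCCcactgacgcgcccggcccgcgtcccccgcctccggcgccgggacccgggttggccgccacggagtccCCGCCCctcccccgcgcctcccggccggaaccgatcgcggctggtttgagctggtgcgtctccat
Smox: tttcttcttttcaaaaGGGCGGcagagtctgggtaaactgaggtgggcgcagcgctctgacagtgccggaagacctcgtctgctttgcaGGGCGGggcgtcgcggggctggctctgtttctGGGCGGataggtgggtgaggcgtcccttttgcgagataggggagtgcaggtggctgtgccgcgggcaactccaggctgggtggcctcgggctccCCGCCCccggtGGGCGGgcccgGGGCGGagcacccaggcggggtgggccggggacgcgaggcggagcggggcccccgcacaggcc
The Odc1 window held 4 GC boxes and the Smox window 6, and 35.7% of the 32851 start windows held at least 1. Of the other members, Oaz2 had 4, Sat1 2 and Amd1 1, Oaz1 had 0, and the windows of Sms had 0 and 4. The E-box CACGTG, the letters bound by MYC and MAX, was in 1 of the Sms windows, in no other member window searched, and in 7.15% of all windows. TATAAA was in the Oaz1 window alone and in 13.6% of all windows. These are matches of letters on both strands and nothing more. Bases outside the windows, those further into the genes included, were not searched, so a gene without a match here may have one elsewhere. Azin1 and Srm had no entry.

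Odc1 stood far higher in tumor than in spleen Tregs. It stood at 947, 1390 and 1260 CPM in the Flox-labelled tumor libraries and at 941, 1210, 1330 and 2030 in the WT-labelled ones. In spleen it stood at 105, 107 and 62.1 CPM in Flox-labelled libraries and at 57.4, 142, 184 and 51.2 in WT-labelled ones. Every tumor library lay above every spleen library, and the lowest tumor value was 941 CPM against a highest spleen value of 184. The means were 1300 ± 366 CPM in tumor and 101 ± 49.2 in spleen (SD, n = 7 each), a difference of 3.78 ± 0.34 on the log2 scale (SE), or 13.8-fold. It was 3.83 among Flox-labelled and 3.75 among WT-labelled libraries, and 3.84 without both WT replicate 2 libraries. Odc1 (Gene 18263, chr12:17544808-17551502, GRCm38.p6) has 13 genes of similar sequence among the GENCODE M21 transcripts. Of these, 1 was counted here, with 404 counts against 82714 for Odc1.

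**Figure D1:**
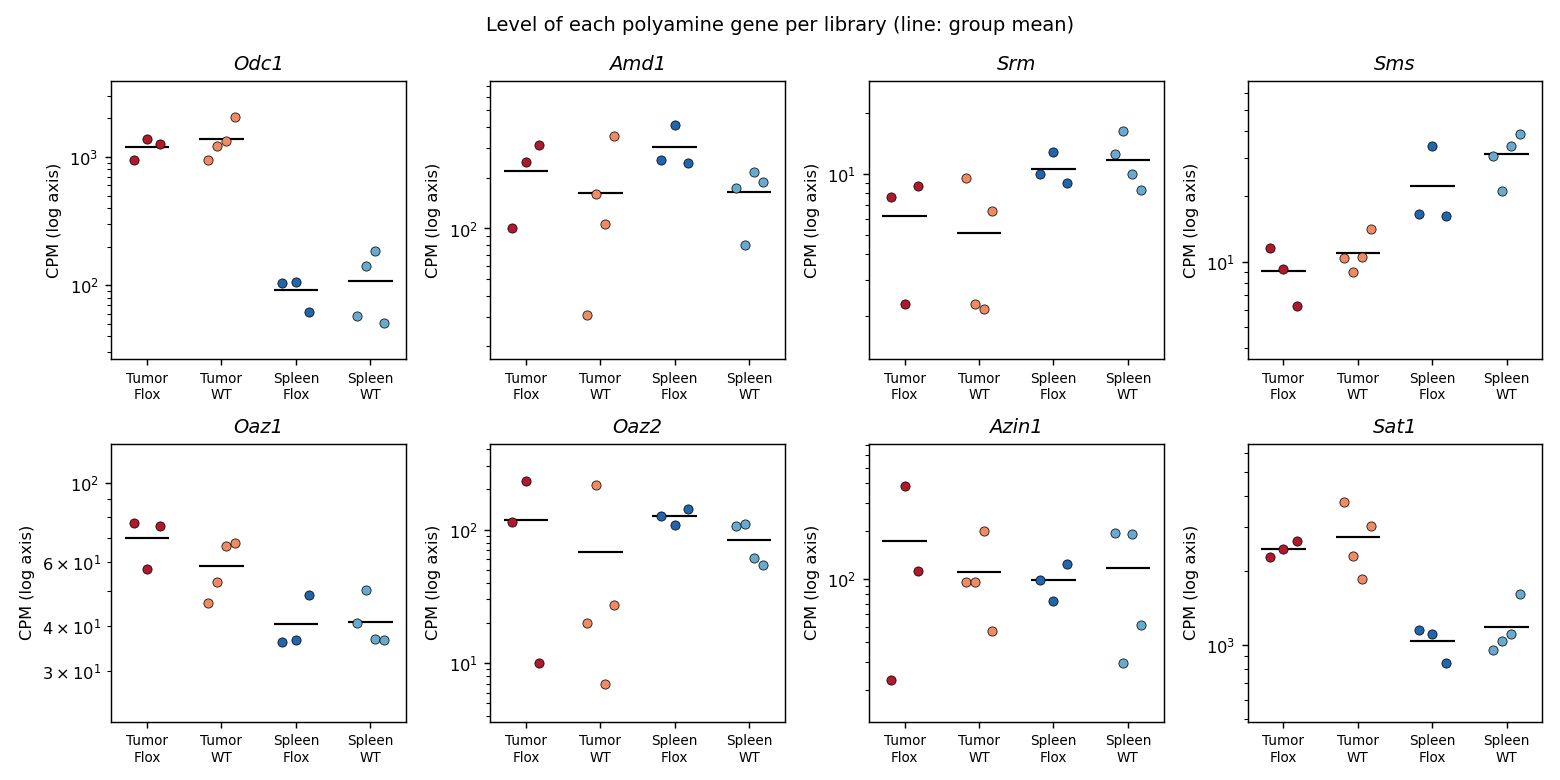
CPM (log axis) of the 8 polyamine genes in each library, with tumor Flox, tumor WT, spleen Flox and spleen WT from left to right and a line at each group mean. Odc1 and Sat1 are above, and Sms below, every spleen library in all 7 tumor libraries, while Oaz2 and Azin1 scatter widely within groups.

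Of the other 7 members, 1 rose (14.3%) and 1 fell (14.3%) in tumor against spleen. Of all 12008 genes tested, 22.5% passed (12.3% higher and 10.2% lower). All 7 cleared the filter on low counts in each tissue, and of the 9882 genes that did so, 9.76% passed as higher and 7.56% as lower. The median log2 difference of the 7 was -0.10, beside 0.03 over all genes tested. Tests are edgeR's quasi-likelihood test, with Benjamini-Hochberg adjusted p over the whole table and a threshold of 0.05.

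The synthases downstream of Odc1 were not higher in tumor. Sms, which makes spermine (chrX:157443851-157492287), stood at 11.6, 9.26 and 6.23 CPM in Flox-labelled and 10.4, 8.95, 10.5 and 14.2 in WT-labelled tumor libraries. Its spleen values were 16.5, 34.2 and 16.3 CPM in Flox-labelled and 30.7, 21.2, 34.2 and 38.8 in WT-labelled libraries. The tissues did not overlap, as in 4.01% of all genes in this direction, and Sms fell by 1.33 ± 0.31 on the log2 scale (edgeR adjusted p = 0.00734). With the reads of its copy Sms-ps added, the log2 difference was -0.68 and did not pass (adjusted p = 0.179), and it missed the threshold within Flox-labelled (-1.19, adjusted p = 0.201, where 7.87% of all genes passed) and within WT-labelled libraries (-1.41, adjusted p = 0.079, where 7.1% passed).

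Srm, which makes spermidine, averaged 5.59 ± 3.26 CPM in tumor and 11.3 ± 2.74 in spleen (SD, n = 7 each), a log2 difference of -0.90 ± 0.42 that did not pass (edgeR adjusted p = 0.145; limma voom gave -1.21 with 0.046). Its tumor values were 7.64, 2.28 and 8.66 CPM in Flox-labelled and 9.51, 2.27, 2.16 and 6.58 in WT-labelled libraries, on 15 to 82 counts. The groups overlapped only through 8.66 and 9.51 CPM, as the lowest spleen library lay at 8.31. Amd1, which supplies the aminopropyl groups, averaged 187 ± 120 CPM in tumor and 223 ± 100 in spleen, a difference of -0.10 with a 95% interval of -1.10 to 0.90 (adjusted p = 0.906). Its values spanned 30.7 to 354 CPM in tumor and 79.6 to 410 in spleen.

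The antizyme genes did not change past the threshold. Oaz1 stood at 77.1, 57.7 and 75.6 CPM in Flox-labelled and 46.3, 52.9, 66.8 and 68.1 in WT-labelled tumor libraries, against 36.0, 36.6 and 48.8 in Flox-labelled and 40.7, 50.2, 36.7 and 36.5 in WT-labelled spleen libraries. The difference was 0.73 ± 0.27 on the log2 scale, which did not pass in edgeR (adjusted p = 0.0652) and passed with DESeq2 (adjusted p = 0.000167, beside 30.6% of all genes passing) and limma voom (0.0326). Only tumor WT replicate 1, at 46.3 CPM, and spleen WT replicate 2, at 50.2, and spleen Flox replicate 3, at 48.8, made the tissues overlap. Oaz2 spanned 6.92 to 231 CPM in tumor and 54.7 to 143 in spleen (-0.14 ± 0.70, adjusted p = 0.91). Azin1, the inhibitor of antizymes, spanned 23.2 to 386 CPM in tumor and 29.6 to 195 in spleen (0.37 ± 0.59, adjusted p = 0.697).

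Sat1, the rate-limiting enzyme of polyamine breakdown, rose in tumor. It stood at 2270, 2440 and 2630 CPM in Flox-labelled and 3780, 2290, 1840 and 3020 in WT-labelled tumor libraries. Spleen values were 1150, 1110 and 843 CPM in Flox-labelled and 951, 1040, 1110 and 1610 in WT-labelled libraries. The tissues did not overlap, as in 5.3% of all genes in this direction. The difference was 1.33 ± 0.20 on the log2 scale, 2.51-fold (adjusted p = 0.000412). It held among Flox-labelled (1.36, adjusted p = 0.0211) and WT-labelled libraries (1.30, adjusted p = 0.0407), and between 1.22 and 1.43 whichever library was left out.

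**Figure D2:**
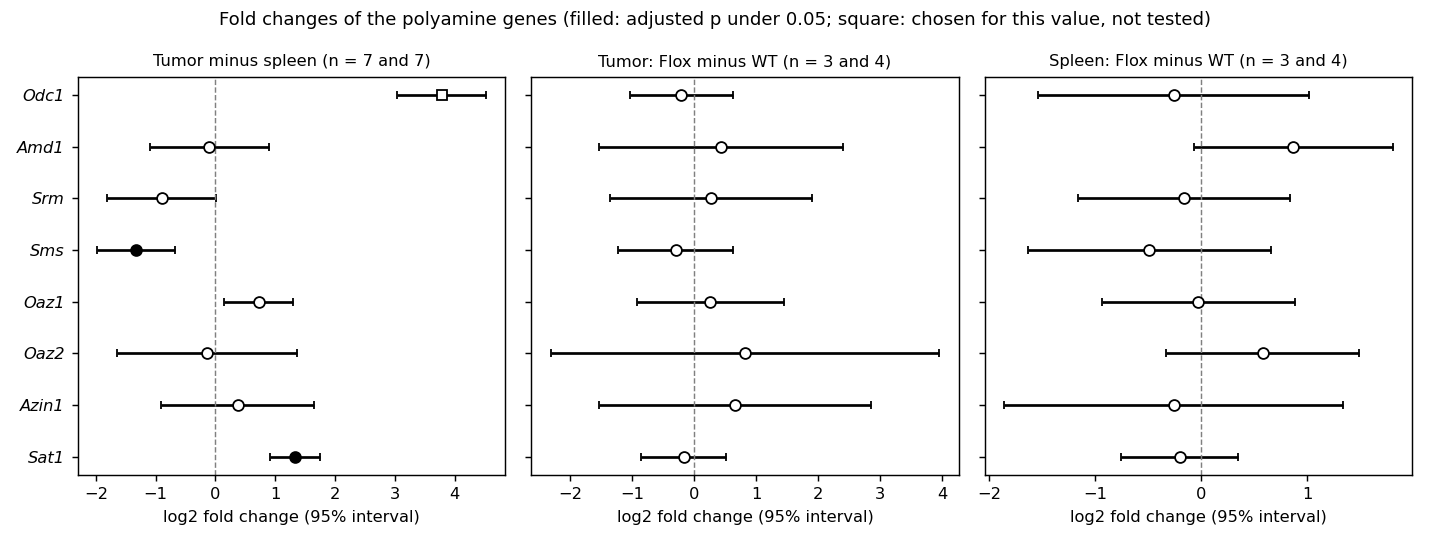
Log2 fold changes of the 8 genes with 95% intervals: tumor minus spleen, Flox minus WT in tumor and Flox minus WT in spleen. Filled symbols pass the threshold, which only Sms and Sat1 do, and only in tumor against spleen; the square marks Odc1, which was chosen for that value and has no test there.

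Scaled by exon length, Sat1 led in both tissues, at 941 ± 227 CPM per kb in tumor and 403 ± 87.8 in spleen (SD, n = 7 each). Odc1 came next in tumor, at 382 ± 107 CPM per kb, and stood at 29.7 ± 14.4 in spleen, where the means of Amd1 (63.0 ± 28.3) and Oaz2 (34.0 ± 10.8) were higher. Amd1 was above Odc1 in 6 of the 7 spleen libraries and Oaz2 in 5, and the Oaz2 and Odc1 means differed by less than their SD. Srm and Sms were lowest in both tissues, at 3.49 and 1.69 CPM per kb in tumor and 7.05 and 4.56 in spleen. Of the summed level of the 8 genes, Odc1 took 26.4 ± 5.90% in tumor and 5.23 ± 2.54% in spleen, Sat1 64.3 ± 8.03% in tumor and 69.6 ± 6.74% in spleen, and Amd1 3.56 ± 1.93% in tumor and 10.9 ± 4.57% in spleen. These shares rest on the values that chose Odc1 and are a description.

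**Figure D3:**
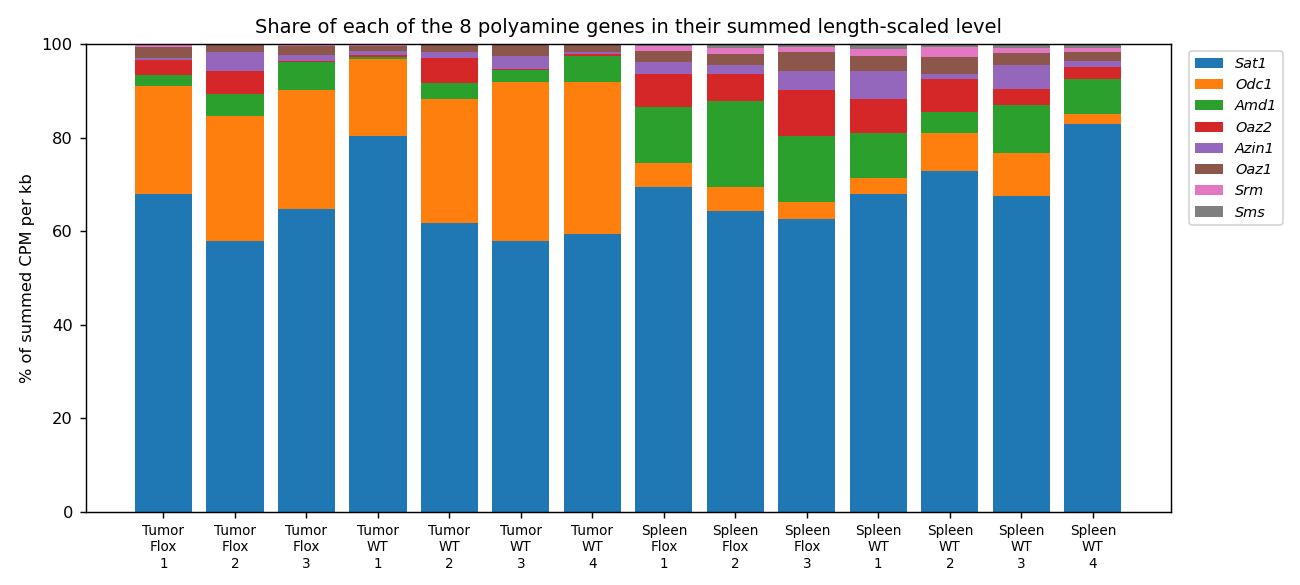
Share of each of the 8 genes in their summed CPM per kb, in percent, for each library from tumor (left) to spleen (right). Odc1 takes 16.3 to 34.0% in tumor libraries and 2.14 to 9.11% in spleen libraries.

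Amd1, Oaz1 and Sms each have a near-identical copy in the table that took comparable numbers of counts, and no source used here says how the authors' counting shared reads between them. Amd1 and Amd2 align at 99.6% identity over 3202 bases and had 25573 and 25322 counts over all libraries, with Amd2 over Amd1 between 0.53 and 1.15 in tumor and 0.83 and 1.09 in spleen. Oaz1 and its pseudogene align at 99.3% over 685 bases, with 6494 and 9167 counts. Sms and its pseudogene align without a mismatch over 1101 bases, with 2292 and 2806 counts, and the pseudogene exceeded Sms in every tumor library (ratio 1.16 to 3.53) while in spleen the ratio ran from 0.473 to 1.45. The levels of these 3 genes are therefore uncertain, and Sms-ps itself differed by -0.18 ± 0.41 between tissues (adjusted p = 0.783).

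**Figure D4:**
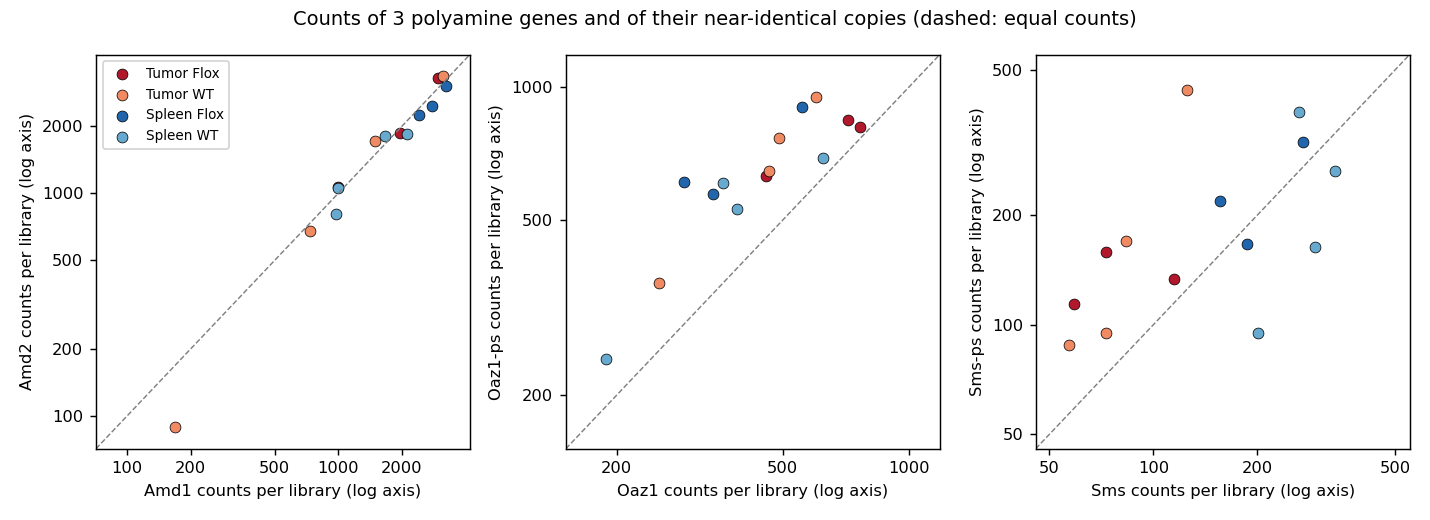
Counts of Amd1, Oaz1 and Sms (horizontal, log axis) against those of Amd2, Oaz1-ps and Sms-ps (vertical, log axis), 1 point a library, with equal counts dashed. Sms-ps lies above Sms in all tumor libraries but not in all spleen libraries.

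Outside the 8 genes, 53 further genes of the pathway and its supply were listed. Genes that cleared the filter on low counts through 1 tissue alone had to differ, so calls are counted over the 33 that cleared it in each tissue: 5 rose (15.2%) and 3 fell (9.09%) in tumor, beside 9.76% and 7.56% of the 9882 genes of the whole table that did so. Smox, which oxidises spermine back to spermidine, changed most by p. It stood at 476, 630 and 307 CPM in Flox-labelled and 353, 440, 923 and 737 in WT-labelled tumor libraries, against 27.3, 32.7 and 39.4 in Flox-labelled and 37.8, 20, 16.2 and 21.1 in WT-labelled spleen libraries. The tissues did not overlap, as in 5.3% of all genes in this direction. The difference was 4.40 ± 0.36 on the log2 scale, 21.2-fold (edgeR adjusted p = 5.13e-06). Paox, the oxidase of acetylated polyamines, cleared the filter through spleen alone, and its values of 0.625 CPM in tumor and 3.79 in spleen (35 and 247 counts) are a description.

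Of the 4 transport genes that cleared the filter in each tissue, 1 rose, beside 9.76% of all such genes. Slc3a2, the heavy chain of amino acid transporters, averaged 108 CPM in tumor and 20.6 in spleen (2.44 ± 0.58, adjusted p = 0.00834), with 373 CPM in tumor WT replicate 4 alone and 50.3 to 78.9 in the other tumor libraries. Cav1, Slc22a2 and Slc12a8 cleared the filter through 1 tissue alone and their values are a description. Slc12a8 averaged 0.605 CPM in tumor and 4.09 in spleen. Cav1, the caveolin, had 260 counts in tumor and 6 in spleen. Slc22a2, an organic cation transporter, had 1 count in tumor and 107 in spleen, 47 of them in spleen WT replicate 2 (60 without it). Over all libraries, the Slc22a2 ratio of tumor to spleen counts per total was 0.00887. It carries no test, since the gene cleared the filter through spleen alone. Eif5a, the translation factor that carries the spermidine-derived amino acid hypusine, was at 55.4 CPM in tumor and 55.3 in spleen (0.09 ± 0.28, adjusted p = 0.858), while its paralog Eif5a2 rose by 1.27 ± 0.35 (adjusted p = 0.0194; 7.66 CPM in tumor and 3.38 in spleen). The hypusine enzymes Dhps and Dohh did not pass.

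In ornithine and arginine supply none of the 6 genes that cleared the filter in each tissue passed, among them Oat, Ass1 and Slc7a1. Gatm cleared it through tumor alone, with 133 counts in tumor, 65 of them in tumor WT replicate 2 (68 without it), and 11 in spleen. The methionine cycle, which feeds Amd1, and methionine salvage shared a list. Of its 9 genes that cleared the filter in each tissue, 2 (22.2%) fell, beside 7.56% of all such genes. They were Mat2a (24.5 CPM in tumor, 76.4 in spleen, difference -1.54 ± 0.31, edgeR adjusted p = 0.00328) and Adi1 (-1.25 ± 0.40, adjusted p = 0.0392). Mat2a did not overlap between tissues, as in 4.01% of all genes in this direction.

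The MYC network, whose partners bind E-boxes and of which Odc1 is a textbook target, changed in 3 of the 8 genes that cleared the filter in each tissue, 2 higher (25%) and 1 lower (12.5%), beside 9.76% and 7.56% of all such genes. Myc stood at 20.6, 3.68 and 19.7 CPM in Flox-labelled and 14.1, 9.06, 11.4 and 9.98 in WT-labelled tumor libraries, against 65.1, 75.1 and 76.5 in Flox-labelled and 42.8, 55.9, 47.4 and 94.3 in WT-labelled spleen libraries. The tissues did not overlap, as in 4.01% of all genes in this direction, and Myc fell by 2.27 ± 0.40 (edgeR adjusted p = 0.00144). Mxi1 (771 CPM in tumor, 122 in spleen; 2.81 ± 0.36, adjusted p = 0.000132) and Mxd1 (533 CPM in tumor, 184 in spleen; 1.84 ± 0.38, adjusted p = 0.00399), which compete with MYC for MAX, rose. Mycl cleared the filter through tumor alone, with 456 counts in tumor, 211 of them in tumor Flox replicate 2 (245 without it), and 10 in spleen. Cell cycle genes, which T cells raise on activation, summed to 370 to 2120 CPM in tumor and 97.4 to 733 in spleen, and 3 of 10 tested rose (30%, beside 9.76% of all such genes); their part in the levels above was not tested.

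**Figure D5:**
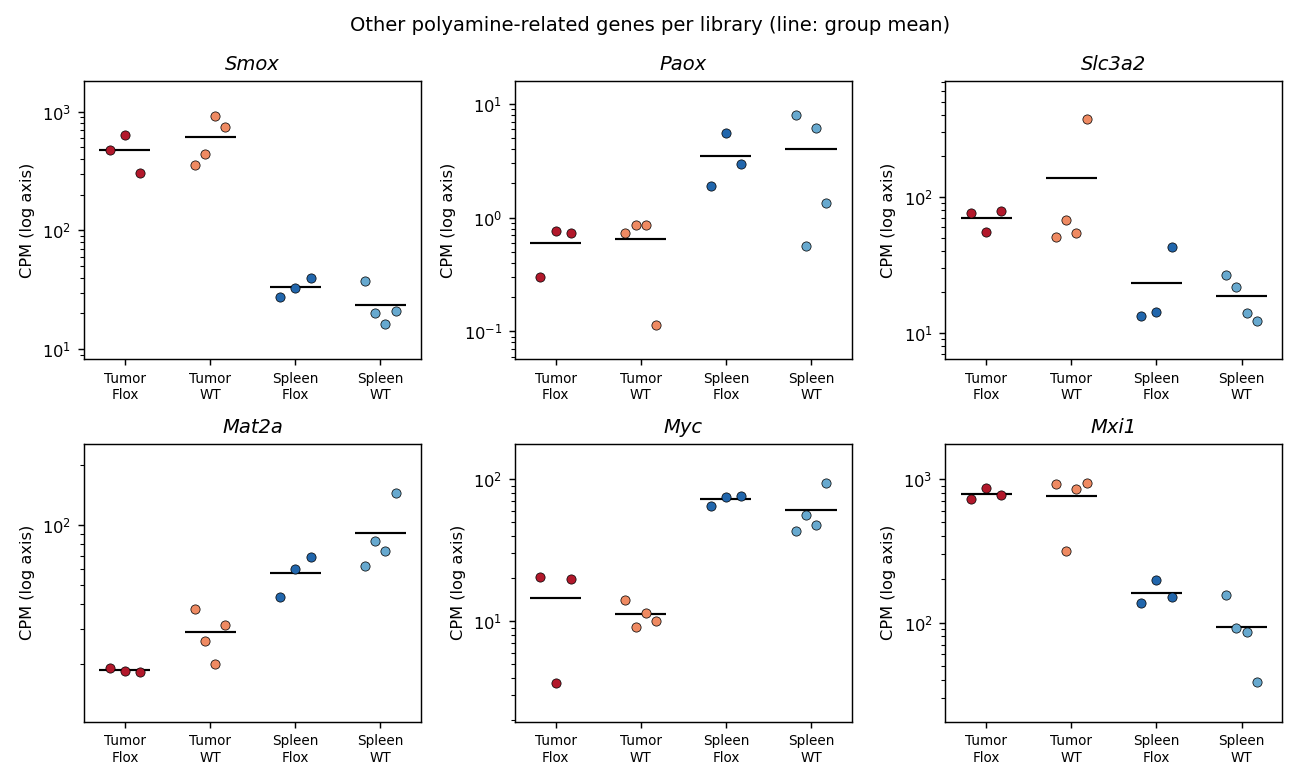
CPM (log axis) of 6 further genes in each library, with tumor Flox, tumor WT, spleen Flox and spleen WT from left to right and a line at each group mean. Smox, Slc3a2 and Mxi1 are higher and Mat2a and Myc lower in every tumor library than in every spleen library, and Paox overlaps. Of all genes tested, 5.3% are higher and 4.01% lower in this way.

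Flox against WT, the comparison the study names, gave no passing gene for these 8 in either tissue, among 0% of all genes tested (10777 in tumor, 10935 in spleen). At an unadjusted p under 0.05, 871 genes stood out in tumor and 750 in spleen; DESeq2 called 266 (2.47%) and 124 (1.13%) genes. In tumor, Odc1 differed by -0.21 (95% interval -1.03 to 0.62, edgeR adjusted p = 0.893), Sat1 by -0.17 (-0.85 to 0.52), Oaz1 by 0.26 (-0.92 to 1.44) and Sms by -0.29 (-1.22 to 0.63). The intervals of Oaz2 (-2.31 to 3.95), Azin1 (-1.54 to 2.85), Amd1 (-1.54 to 2.40) and Srm (-1.35 to 1.90) were wider. The groups overlapped for all 8 members, while 5.2% of all genes tested did not overlap in either direction. A miss of the threshold here does not show that the groups were alike.

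In spleen, Odc1 differed by -0.26 (-1.54 to 1.02, adjusted p = 0.936), Sat1 by -0.20 (-0.76 to 0.35), Sms by -0.49 (-1.64 to 0.66) and Oaz1 by -0.03 (-0.94 to 0.88). Amd1 stood at 253, 410 and 244 CPM in Flox-labelled libraries and at 174, 79.6, 216 and 188 in WT-labelled ones. The groups did not overlap, as in 2.96% of genes in this direction; the difference of 0.87 ± 0.41 did not pass (edgeR adjusted p = 0.674). Its copy Amd2 gave 0.84 ± 0.39, also not passing. Sms and Sat1 lie on the X chromosome, and the Xist and Ddx3y values above go with the genotype labels. The Flox effect was compared between tissues too: of the 8, none passed (0% of 12008 genes), with adjusted p of at least 0.824; for Odc1 the difference was 0.06 (-1.34 to 1.45).

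Among the other pathway genes none passed Flox against WT (37 tested in tumor, 38 in spleen). The smallest p in tumor belonged to Mri1 (3.30 ± 1.23, 39.1 CPM in Flox-labelled and 3.95 in WT-labelled libraries, where replicate 1 alone held 110 CPM of the Flox-labelled values), and the smallest in spleen to Mxd1 (-1.73 ± 0.51; 80.3 CPM in Flox-labelled and 263 in WT-labelled libraries) and Gpc1 (2.03 ± 0.61). All had adjusted p of at least 0.584. For the difference between tissues 42 were tested and none passed, with Mri1 (4.54 ± 1.42, adjusted p = 0.425) and Mga, a MAX partner (-2.84 ± 1.21, adjusted p = 0.442), among the smallest p.

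Within groups the 8 genes differed in steadiness. The SD of log2 CPM was 0.24 for Oaz1, 0.31 for Sat1, 0.44 for Sms, 0.58 for Odc1, 0.76 for Srm, 0.93 for Amd1, 1.31 for Azin1 and 1.59 for Oaz2, beside a median of 0.99 over all genes tested. Oaz2 in WT-labelled tumor libraries ran at 19.9, 217, 6.92 and 27.4 CPM, and Azin1 in Flox-labelled tumor libraries at 23.2, 386 and 112.

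The 5 genes whose profile over the 14 libraries was nearest to that of Odc1 were Ehd1, Ly6a, Vim, S100a6 and Fgl2, by the root mean square difference of centred log2 CPM among 4289 candidates. They were at 0.59, 0.67, 0.71, 0.75 and 0.76, against a median of 2.27 over the candidates. Smox was at 0.81 and Sat1, the nearest of the 7 members, at 1.42; Oaz2 was the farthest at 2.92. The measure rests on the tissue gap that chose Odc1, and all 5 have it: Ehd1 averaged 71.1 CPM in tumor and 5.67 in spleen, and Ly6a 316 in tumor and 32.6 in spleen.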

How the data were processed

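For 14 libraries the authors deposited raw, unnormalized read counts in 1 table; the build is mm10 per the submitters' processing notes. Aligner, counter and strand: not given in the sources used here. RNA was extracted with a column kit and libraries were made by an ultra-low-input protocol, per the labels' protocols. Of the 27179 Gene IDs, 25275 matched RefSeq symbols (GRCm38.p6); the 1904 unmatched held 1.254 to 1.946% of counts. Counts were tested with edgeR 4.0.16 (quasi-likelihood, TMM, filterByExpr) in R 4.3.3, adjusted over all genes tested; the SE is the absolute log2 fold change over the square root of F, and 95% limits use its t quantile. CPM are TMM-adjusted. CPM per kb use exon-union lengths of GENCODE M21. Copies were found with BLAST 2.17.0. The fits were tested on simulated counts with known changes. A first criterion, on a single draw, failed for the difference between tissues; draws from several seeds scattered around the true changes, and the criterion was then set on their mean. In these simulations most changes between Flox and WT were not called, even large ones, so a Flox result that did not pass says little about whether the gene changed. Counts of pathway genes over those that cleared the filter in each tissue were added after seeing the data. No pair of libraries in a group looked like duplicates (chi-square over degrees of freedom 92.1 to 391). Other settings tried were DESeq2 1.42.0, limma 3.58.1 voom, RLE scaling, other filters, the replicate block, other sets of libraries, each library left out, and summed copies, added after seeing the data. Named genes were all members and, per list and contrast, up to 4 that passed by p, or else the 2 smallest p; the text gives some of these. Single values used an exact permutation test. The members and lists were chosen with earlier results of these data known.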

Additional observations from a re-analysis of the deposited data

Results flagged for a closer look

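Among 24 groups of 4 libraries examined, 2 had a library far from the other 3, by Dixon's 95% critical value for the gap over the range; chance gives about 1 in 20. Oaz2 in tumor WT replicate 2 stood at 217 CPM, while the other WT-labelled tumor libraries held 6.92 to 27.4. Sms-ps in tumor WT replicate 4 stood at 50 CPM, while the other 3 held 13.7 to 18.3.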

How the results depend on the processing

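Sat1 (1.22 to 1.43 on the log2 scale, adjusted p at most 0.0407) kept its direction between tissues under each of the 24 alternatives run. Odc1 ran from 3.64 to 3.97 under them. It was chosen for this difference in these same libraries, so its range is a description and no support. The count of the other 7 members called in tumor against spleen was 2 with every library left out in turn, 3 with DESeq2, 4 with voom, and 1 each with copies summed, within Flox-labelled and within WT-labelled libraries. Of all genes, 847 were called between tissues in the Flox-labelled libraries alone and 750 in the WT-labelled ones. Genes called Flox against WT in tumor were 266 with DESeq2 and 1 with voom; in spleen 124 with DESeq2, 1 with the stricter filter, 4 with all 14 libraries in 1 fit, and 0 to 1 with a library left out (1 without WT replicate 2); and for the difference between tissues 153 with DESeq2 and 0 to 1 with a library left out (1 without tumor Flox replicate 1). No member passed Flox against WT under any alternative run.

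Directions turned only for member values that did not pass, and the cause was not tested. The replicate block gave 0.05 for Odc1 and -0.37 for Azin1 in tumor, and -0.04 and -0.08 for the difference between tissues. Same-numbered libraries correlated at -0.05 to 0.08 between tissues and -0.02 to 0.05 between genotype labels, and 1 of 7 tumor libraries matched its own number best. Differently numbered libraries correlated at -0.11 to 0.08 between tissues and -0.05 to 0.06 between genotype labels. With both kinds of pair this low, the check cannot tell whether same-numbered libraries share an animal. The WT replicate with Ddx3y bore the same number in both tissues, as given above. For the spleen contrast Oaz1 was 0.01 with voom and without a filter, and 0.22 with copies summed. Between tissues, WT-labelled libraries gave -0.01 for Azin1 and 0.08 for Amd1, and Flox-labelled ones 0.01 for Oaz2. For the difference between tissues voom gave -0.04 for Odc1, and summed copies -0.13 for Oaz1 and -0.39 for Sms.

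Leaving out a library moved these values as follows. Between tissues Amd1 ran from -0.53 to 0.08, Azin1 from -0.18 to 0.60 and Oaz2 from -1.09 to 0.07. In tumor Odc1 ran from -0.34 to 0.07, Azin1 from -0.69 to 1.18, Oaz2 from -0.12 to 2.68, Sat1 from -0.31 to 0.05 and Srm from -0.04 to 0.76. In spleen Odc1 ran from -0.50 to 0.12, Azin1 from -0.59 to 0.10, Oaz1 from -0.17 to 0.06 and Srm from -0.32 to 0.01. For the difference between tissues Amd1 ran from -0.81 to 0.34, Azin1 from -0.37 to 1.46, Oaz2 from -0.67 to 2.07, Odc1 from -0.30 to 0.34, Sat1 from -0.16 to 0.25 and Sms from -0.03 to 0.67. RLE in place of TMM shifted the median of all genes by at most 0.04. The median SE of a log2 difference between Flox and WT in tumor was 0.743 over all genes tested.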
